A study of Arabidopsis thaliana with 6 samples.

Results

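In Arabidopsis thaliana seedlings, 5 genes of the xyloglucan endotransglucosylase/hydrolase (XTH) family were examined. In the array annotation used, 10 XTH genes had a probe set of their own, among 13355 such genes in all. The 5 are XTH18 (AT4G30280), XTH19 (AT4G30290), XTH20 (AT5G48070), XTH26 (AT4G28850) and EXGT-A3 (AT2G01850), the last also known as XTH27. Each was measured by 1 probe set, a group of short oligonucleotides that together report on a transcript, and each was found through the gene symbol in the array's annotation. The 5 were selected on their signals in the same comparison of genotypes that is described below, so their differences are given as a description, without p-values. Which of them passed the threshold of the fit over the whole array is stated below but is not read as a test. The family has 33 genes, and those without a probe set of their own in that annotation were not analysed here. It did not list 8730 of the 22746 probe sets tested, so such genes may still be on the array. Genes called measured below are those with a listed probe set of their own.

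RNA came from whole young seedlings of the Col-0 accession, 3 samples of wild type and 3 of cdkf;1-2, a line in which a T-DNA is inserted in the gene of the cyclin-dependent kinase CDKF;1. All 6 were 7 days old, by labels that count from germination in one place and from sowing in another, and had been kept on plates containing 0.5% sucrose at 22 °C, in days with 8 h of light and nights of 16 h. They were harvested 4 h into the light period. The CDKF;1 transcript had no named probe set and was not analysed here, so the genotypes rest on the labels. The labels call the samples biological replicates but do not say how many seedlings each held or whether they were grown apart, so the spread between them may be partly technical.

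XTH enzymes act in the primary cell wall on xyloglucan, a hemicellulose that coats and links cellulose microfibrils. They cut a xyloglucan chain and join the cut end either to another chain, which remodels the wall without shortening its polymers, or to water, which breaks the chain. In growing roots and hypocotyls this activity accompanies cell expansion, together with that of expansins, which loosen the wall without cutting it. XTH18, XTH19 and XTH20 belong, with XTH17, to one branch of closely related proteins and are known mainly from roots. XTH26 is known from root hairs, the tubular outgrowths of root epidermal cells, and EXGT-A3 from developing veins.

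With 16 added to the signals before taking log2, XTH19 had the largest difference of the 5 genes between genotypes. With 1 added, XTH26 had a larger one (-2.89, against 2.35 for XTH19). In wild type replicates 1 to 3 the quantile-normalized signal of XTH19 read 381, 449 and 442. The same replicates of cdkf;1-2 read 2127, 2268 and 2094. Each mutant sample lay far above each wild type sample. After this normalization the samples within a genotype lay close together (424 ± 37.3 and 2163 ± 92.6, SD, n = 3). As deposited, the mutant samples were further apart, at 1343, 2609 and 3127, against 363, 498 and 394 in wild type. On the quantile-normalized signals the difference was 2.31 in log2(signal + 16) (SE 0.12), or 4.96-fold. This put XTH19 at rank 34 by size of difference among the 13355 genes. The added 16 damps the noise of dim signals and makes a fold change smaller than the ratio of the signals, most of all where they are low.

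XTH18 also had the higher signal in the mutant. Its values were 229, 272 and 221 in wild type and 459, 579 and 417 in cdkf;1-2, so the genotypes did not overlap and mutant replicate 2 was the highest. The means were 241 ± 27.7 and 485 ± 83.9 (SD, n = 3), a log2 difference of 0.96 (SE 0.16), or 1.94-fold. On the signals as deposited, before the arrays were brought to a common scale, the genotypes did overlap for XTH18, since wild type replicate 2 read 307 and mutant replicate 1 read 298.

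XTH20, the third gene of this branch, showed no such separation. Its signal was 61.4, 64.5 and 70.7 in wild type and 71.6, 106 and 65.8 in cdkf;1-2. The third mutant sample lay inside the wild type range, and the mutant mean of 81.2 ± 21.9 against 65.5 ± 4.74 (SD, n = 3) rested on replicate 2. The log2 difference of 0.23 (SE 0.17) became 0.06 without that sample.

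**Figure D1:**
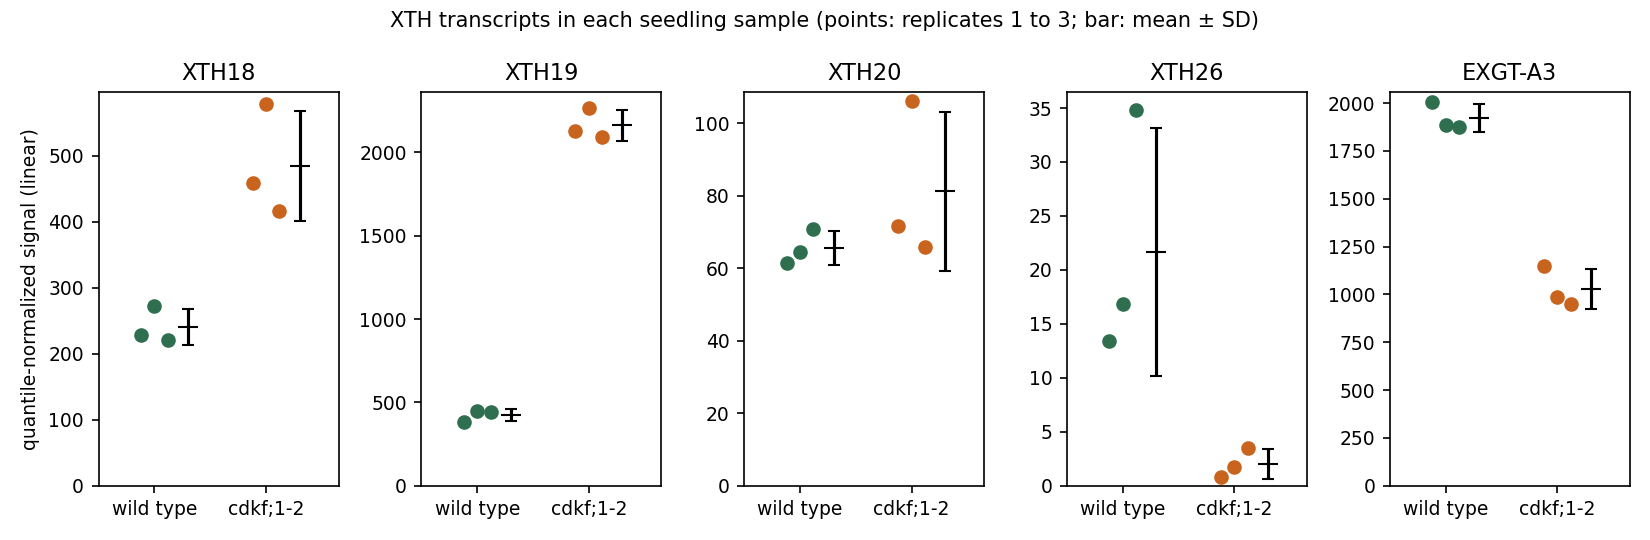
Quantile-normalized signal (linear axes from 0, one scale per gene) of the 5 XTH genes in 3 wild type and 3 cdkf;1-2 samples, with points for replicates 1 to 3 from left to right and bars for mean ± SD. XTH19 lies between 2094 and 2268 in the mutant against 381 to 449 in wild type, EXGT-A3 and XTH26 are lower in the mutant, and the genotypes overlap for XTH20.

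XTH26 was dim in all 6 samples and had its lower signals in the mutant. It read 13.4, 16.8 and 34.8 in wild type and 0.817, 1.75 and 3.49 in cdkf;1-2. The genotypes did not overlap, although wild type replicate 3 stood well above the other two and the coefficient of variation was 53.0% in wild type and 67.2% in the mutant. The log2 difference was -1.03 (SE 0.21), so that wild type was 2.03-fold higher on this scale. This size depends on the constant added before the logarithm, with a difference of -2.89 for a constant of 1 and -0.37 for one of 64. No detection calls were used, so it is not stated which of these signals lay above background.

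EXGT-A3 was lower in the mutant as well, at bright signals. It read 2004, 1885 and 1873 in wild type and 1149.6, 986 and 951 in cdkf;1-2, with no overlap (1921 ± 72.6 against 1029 ± 106, SD, n = 3). Its log2 difference of -0.89 (SE 0.12), or 1.86-fold higher in wild type, was the one most sensitive to how the arrays were scaled. With arrays scaled on the bacterial spikes added before hybridisation it was -0.43, a scaling under which the median probe set moves by 0.17, and relative to that shift it was -0.60. On the deposited signals it was -0.76.

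In the fit over the whole array, made with limma, 4 of the 5 genes passed an adjusted p of 0.05, XTH18 and XTH19 on the higher side and XTH26 and EXGT-A3 on the lower. Over all genes, 13.1% passed this threshold, 6.57% higher and 6.52% lower in cdkf;1-2. The signals of 4 of the 5 genes did not overlap between genotypes, against 31.5% of all genes. Without wild type replicate 2, mutant replicate 2 or mutant replicate 3, XTH26 did not pass, nor did it with a constant of 64. With spike scaling EXGT-A3 did not pass, and on the deposited signals only XTH19 did. Since the 5 were chosen with this comparison known, nothing is read from these counts. The median of their log2 differences was 0.23, and that of all genes 0.00. Of the 5, XTH18, XTH19 and EXGT-A3 had a mean signal above 94.3, the median over all probe sets, while XTH20 and XTH26 lay below it. Of all probe sets 14.4% passed, and 48.3% of those calls were higher in the mutant. Of the calls made after centring on array medians 58.8% were higher, and after spike scaling 80.4%. The direction of each of the 5 differences was the same under all of the scalings, constants and left-out samples that gave it a value.

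**Figure D2:**
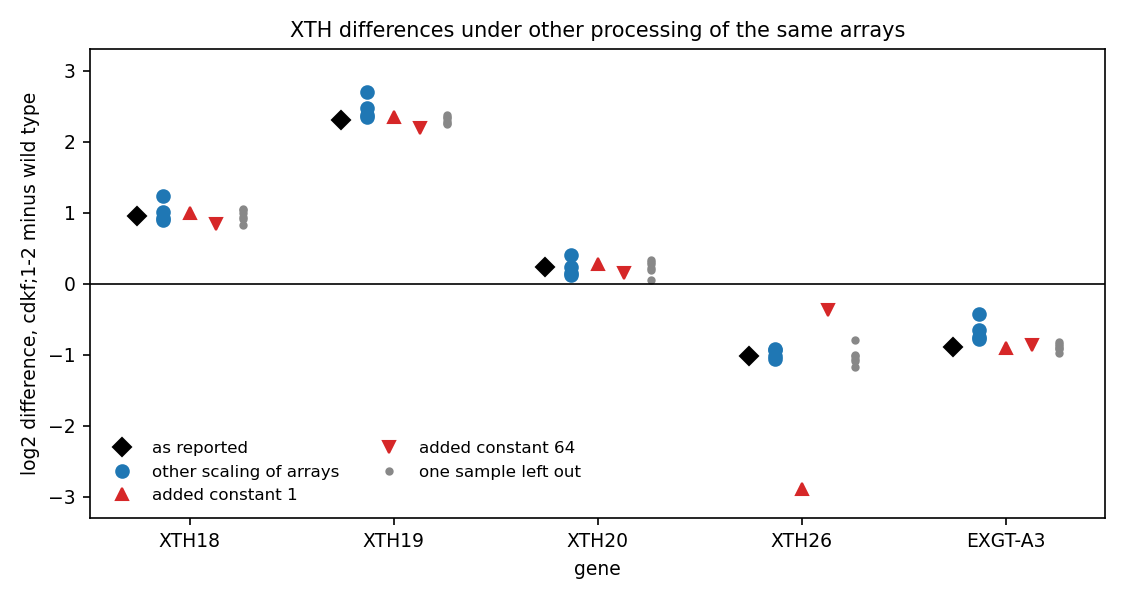
Log2 difference (cdkf;1-2 minus wild type) of each XTH gene as reported (diamonds), under 4 other scalings of the arrays (circles), with 1 or 64 added in place of 16 (triangles) and with each sample left out in turn (small points). XTH26 runs from -2.89 to -0.37 with the added constant, EXGT-A3 moves up to -0.43 with scaling, and each gene stays on its own side of 0.

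XTH18, XTH19 and XTH20 were next set against XTH26 on the same arrays. Each gene's log2 signal was expressed relative to that of XTH26 and then relative to the wild type mean of that quantity. A common scale factor of an array does not cancel here, because the added 16 outweighs the mutant signals of XTH26. The deposited and the spike-scaled signals differ by such a factor only. Between them the shift of XTH19 moved from 3.40 to 3.63 and that of XTH18 from 1.94 to 2.16. Only the shift between genotypes is meaningful here, since different probe sets respond differently to the same amount of RNA. Relative to XTH26, XTH19 stood 3.41, 3.42 and 3.17 log2 units above the wild type mean in mutant replicates 1 to 3, and the wild type samples lay between -0.41 and 0.24. XTH18 stood 2.02, 2.26 and 1.67 units above it, and its wild type samples lay between -0.58 and 0.33. XTH20 stood 1.23, 1.63 and 0.92 units above it, with wild type samples between -0.38 and 0.24. The genotypes did not overlap in any of the 3, but each shift contains the difference of -1.03 of XTH26 itself, a gene chosen for it. For XTH20 the shift is its own 0.23 plus the size of that difference, so it shows no separation of XTH20. The mean shifts were 3.34, 1.98 and 1.26 (pooled SD 0.27, 0.41 and 0.35, n = 3 per genotype). They carry the dependence of XTH26 on the added constant, with 5.24, 3.89 and 3.17 for a constant of 1 and 2.56, 1.21 and 0.52 for 64.

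**Figure D3:**
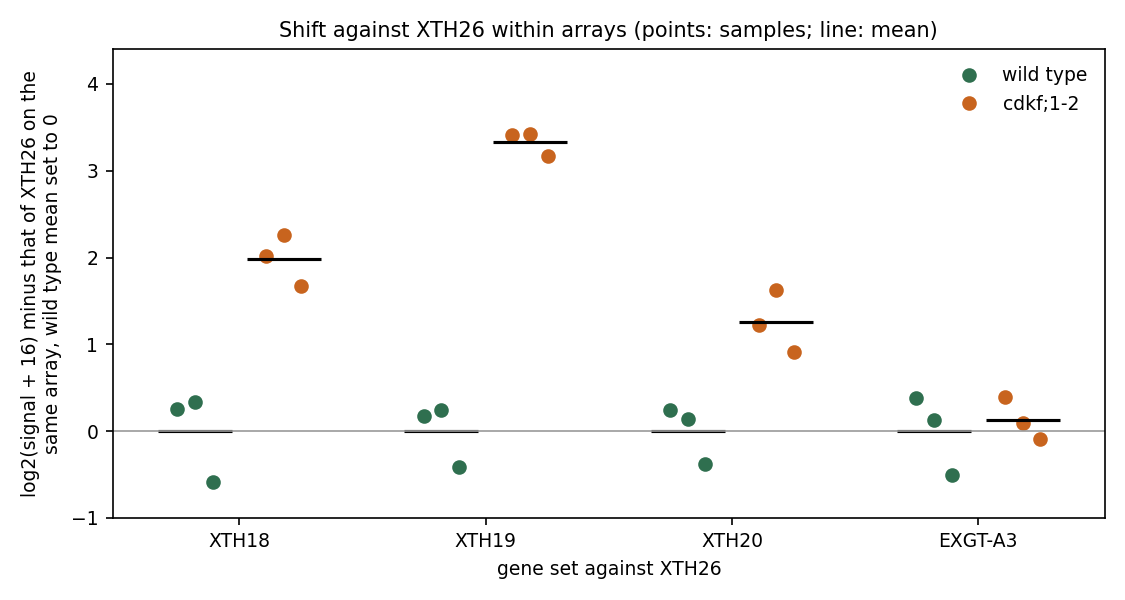
Shift of XTH18, XTH19, XTH20 and EXGT-A3 against XTH26 on the same array, in log2(signal + 16) with the wild type mean set to 0 (points are samples, lines are means, n = 3 per genotype). Mean shifts in cdkf;1-2 are 1.98, 3.34, 1.26 and 0.13, and the genotypes overlap for EXGT-A3 only. Each shift includes the difference of XTH26 itself and changes with the added constant, to -0.50 for EXGT-A3 with 64.

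EXGT-A3 and XTH26 were both lower in the mutant. Relative to XTH26, EXGT-A3 stood 0.39, 0.09 and -0.09 log2 units from the wild type mean in the mutant, and the wild type samples ran from -0.51 to 0.38. The genotypes overlapped, with a mean shift of 0.13 (pooled SD 0.37, n = 3 per genotype). The added constant sets the sign and size of this shift, which was 1.99 with a constant of 1 and -0.50 with 64, and it was -0.12 without wild type replicate 3. No relation between the 2 genes is read from it.

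The 3 related genes also differed from one another in the size of their difference. XTH19 relative to XTH18 shifted by 1.35 log2 units (pooled SD 0.16, n = 3 per genotype), or 2.55-fold, and the mutant samples stood 1.39, 1.16 and 1.50 units above the wild type mean. XTH18 relative to XTH20 shifted by 0.73 units (pooled SD 0.15), with mutant samples at 0.79, 0.63 and 0.75. XTH19 relative to XTH20 shifted by 2.08 units (pooled SD 0.19). The genotypes did not overlap in any of these 3 comparisons. These are descriptions of genes chosen with the comparison known. The proteins are close relatives, and how far each probe set also binds transcripts of the other genes was not tested.

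Sample by sample on the quantile-normalized signals, XTH18 and XTH20 shared their extremes in the mutant. Replicate 2 was highest for both, by 0.26 and 0.35 log2 units over the mutant mean, and replicate 3 lowest, by -0.20 and -0.23. XTH19 varied less there, between -0.05 and 0.07. Deviations of EXGT-A3 in the mutant ran from 0.16 in replicate 1 to -0.11 in replicate 3, and those of XTH26 from -0.10 in replicate 1 to 0.12 in replicate 3. The order of the samples depends on the normalization. On the deposited signals mutant replicate 1 was lowest for XTH18 and XTH20, at 298 and 51.1, against 571 and 80.3 in replicate 3. EXGT-A3 turned round there, from 741 in mutant replicate 1 to 1373 in replicate 3. With 3 samples per genotype, these patterns are given as values only.

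In the gene order of the TAIR10.1 gene table, XTH18 and XTH19 are direct neighbours, and XTH24 (MERI-5), another gene of the family, precedes XTH18. XTH20 lies on a different chromosome, so it is a relative of this pair and not a neighbour of it. Of the 40 other protein-coding genes within 5 places of any of the 5 genes, 18 had a probe set of their own. Limma called 0 of these 18 higher and 1 lower, against 6.57% and 6.52% of all genes. These neighbours were looked up after the data had been seen. Around the XTH18 and XTH19 pair, AT4G30310 differed by 0.01 log2 units (SE 0.11, adjusted p = 0.975 with limma), AT4G30330 of 0.22 (SE 0.29), AT4G30230 of -0.17 (SE 0.16) and AT4G30320 of -0.92 (SE 0.39, limma adjusted p = 0.160). None of these 4 passed the threshold. The 1 that did was AT5G48110, 3 places from XTH20, with a log2 difference of -1.52 (SE 0.18) and an adjusted p of 0.00246 in limma. Beside XTH26, the 4 measured neighbours lay between -0.27 and 0.02.

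Among the other measured genes of the family only XTH33 passed the threshold. The gene lists here and below were chosen with earlier results of these data known, so their counts and p-values are descriptions. Of 28 XTH genes besides the 5, 5 had a probe set of their own. Limma called 1 of them higher and 0 lower, against 6.57% and 6.52% of all genes. At an unadjusted p of 0.05 there were 2 higher and 0 lower, against 13.4% and 14.0%. The median log2 difference was 0.12, against 0.00 over all genes. XTH33, a member predicted to be anchored in the plasma membrane, read 147, 162 and 140.4 in wild type and 209, 223 and 201 in cdkf;1-2, and rose by 0.45 (SE 0.12, limma adjusted p = 0.0434). This call was marginal, since it was lost without any one of the 6 samples (limma adjusted p = 0.0519 to 0.133) and under 12 of 15 alternatives in all. XTH32, from the branch thought to favour hydrolysis, had a difference of 0.39 (SE 0.17, limma adjusted p = 0.168), and with spike scaling it was 0.82 and passed (limma adjusted p = 0.0415). XTH29 had 0.12 (SE 0.15) and XTH16 -0.31 (SE 0.17), which turned to 0.08 with spike scaling. XTH21, a gene known from roots, was dim like XTH26, at 1.32, 6.61 and 20.3 in wild type and 0.938, 2.53 and 0.797 in the mutant, and its difference of -0.48 (SE 0.25) did not pass.

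Of the genes that make xyloglucan, the substrate of these enzymes, the annotation used gave a probe set to those of the glucan backbone only. Of 18 listed genes 5 had a probe set of their own, all of the CSLC group of glucan synthases. Limma called 0 of them, against 13.1% of all genes. At an unadjusted p of 0.05 there were also 0, against 13.4% higher and 14.0% lower over all genes. CSLC5 had a log2 difference of 0.38 (SE 0.25), CSLC12 of -0.04 (SE 0.11) and CSLC6 of -0.05 (SE 0.27). CSLC04 (CSLC4), the main backbone synthase of vegetative tissue, had -0.20 (SE 0.22), and ATCSLC08 (CSLC8) had -0.24 (SE 0.17). The signs of CSLC12, CSLC6 and CSLC04 turned with spike scaling, to 0.14, 0.19 and 0.25, and that of CSLC04 also with median centring, to 0.02. Of 4 listed enzymes that trim xyloglucan side chains or oligosaccharides, 0 were measured here. Of 14 genes of cellulose synthesis only COB, which is needed for oriented cellulose deposition, was measured, at -0.53 (SE 0.16, limma adjusted p = 0.0678).

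Expansins, which act on the same walls, were better covered. Their list too was chosen with earlier results known, so its counts are not read as a test. Of 29 listed genes 16 were measured, of which 7 rose and 1 fell in limma, against 6.57% and 6.52% of all genes. At an unadjusted p of 0.05 there were 8 higher and 2 lower, against 13.4% and 14.0% of all genes. The median log2 difference was 0.39, and 0.00 over all genes. EXLB1 rose by 1.64 (SE 0.16), EXPA4 by 1.57 (SE 0.14), EXPA20 by 1.21 (SE 0.12) and EXPB3 by 1.00 (SE 0.15). EXPA9 rose by 0.69 (SE 0.11), EXPA15 by 0.58 (SE 0.14) and EXLA2 by 0.47 (SE 0.12). The calls of EXLA2 and EXPA15 were less secure. That of EXLA2 was lost without each wild type sample, mutant replicate 2 or mutant replicate 3 (limma adjusted p = 0.0791 to 0.133), and that of EXPA15 without wild type replicate 2 or 3 or mutant replicate 2 or 3 (limma adjusted p = 0.0640 to 0.114). Over all 15 alternatives, EXLA2 lost its call in 11, among them every other scaling of the arrays, and EXPA15 in 7. Differences of EXPB1 (0.39), EXPA16 (0.38), EXPB5 (0.32), EXLA3 (0.14), EXPB2 (-0.06), EXPA8 (-0.27) and EXLA1 (-0.32) did not pass. Those of EXPB2 and EXPA8 turned to 0.07 and 0.11 with spike scaling. On the deposited signals 2 expansins were called, both higher.

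**Figure D4:**
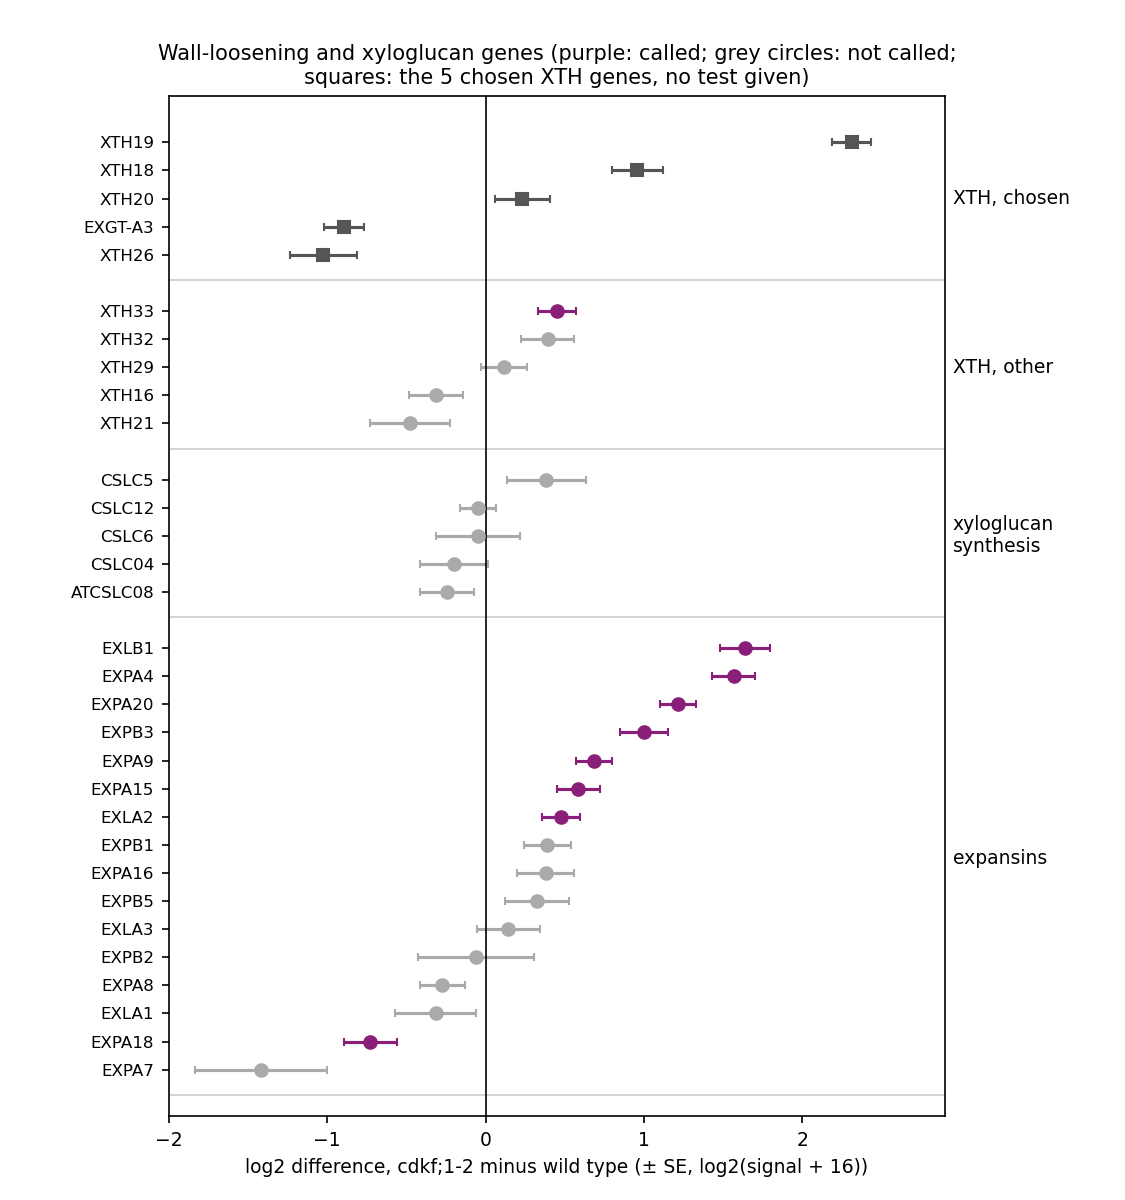
Log2 difference (cdkf;1-2 minus wild type, ± SE, n = 3 per genotype) of the 5 chosen XTH genes (squares), the 5 other measured XTH genes, 5 CSLC glucan synthases and 16 expansins, with purple circles for genes called by limma and grey circles for the others. The expansins run from EXPA7 at -1.42 to EXLB1 at 1.64, and the other XTH genes and the synthases stay between -0.48 and 0.45.

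The expansins at the lower end were those of root hairs, the cells for which XTH26 is known. EXPA18 fell by 0.73 (SE 0.17, limma adjusted p = 0.0280), from 123, 123 and 116 in wild type to 51.8, 86.3 and 65.4 in cdkf;1-2. That call was lost without any one wild type sample or mutant replicate 3 (limma adjusted p = 0.0722 to 0.0996). It was also lost on the deposited signals, with spike scaling (-0.53) and with a constant of 1, so under 7 of 15 alternatives in all. EXPA7 read 101, 101 and 94.1 in wild type and 4.41, 39.8 and 53.7 in the mutant, a difference of -1.42 (SE 0.41) that did not pass (limma adjusted p = 0.0620) with mutant replicate 1 far below the others. Without that replicate it was -0.90 and passed (limma adjusted p = 0.0101). It also passed without mutant replicate 3, with median or trimmed mean scaling, with a constant of 64 and without the dimmest probe sets.

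A list of 24 genes known from root hairs, XTH26 not among them, had 5 measured members. EXPA7 and EXPA18, described above, are among these 5. As with the expansins, the list was chosen with earlier results known, and its counts are not read as a test. By limma 3 of the 5 fell and 0 rose, against 6.52% and 6.57% of all genes. At an unadjusted p of 0.05 the numbers were 4 and 0, against 14.0% and 13.4%. The median log2 difference was -1.42, and 0.00 over all genes. Besides EXPA18 the called genes were AT1G30870, with a log2 difference of -1.72 (SE 0.13), and AT4G26010, with -1.62 (SE 0.15). AT1G30870 read 276, 342 and 315 in wild type against 86.0, 80.4 and 83.4 in the mutant. SCN1, which keeps hair growth to a single site on the cell, had -0.12 (SE 0.12), and 0.22 with spike scaling. The summed signal of the 5 markers was 1408 to 1602 in wild type and 703 to 855 in cdkf;1-2, and none was at 0. This sum was lower in the same samples as XTH26, and the part of the markers in the lower XTH26 signal was not tested. In RNA from whole seedlings, fewer cells of a type and less RNA per cell cannot be told apart.

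Other properties of the samples moved with genotype too. PYK10, the 1 measured gene of 11 listed root markers, read 7003 to 8015 in wild type and 8421 to 9594 in the mutant. Its log2 difference was 0.24 (SE 0.12, limma adjusted p = 0.249), and this transcript was abundant in each sample. Whether all of its signal came from roots was not tested. With spike scaling PYK10 differed by 0.65 and was called higher in the mutant (limma adjusted p = 0.0446). The summed signal of 4 markers of green tissue was 33499 to 33979 in wild type and 26105 to 27279 in cdkf;1-2, where PRK and PSAN had log2 differences of -0.72 and -0.59 and were called lower. Neither passed after median centring (-0.46 and -0.28), after spike scaling (-0.23 and -0.04) or on the deposited signals, and PSAN also failed with trimmed mean scaling and without wild type replicate 2 or 3 or mutant replicate 3. RCA and LHCB4.1 overlapped between genotypes and were not called, at -0.17 and -0.15, and turned to 0.14 and 0.17 with spike scaling. Over its array's median, the 25S ribosomal RNA control lay at log2 5.49 to 5.75 in wild type and 6.43 to 6.77 in the mutant. Signal at the 3' end divided by that at the 5' end, a measure of RNA integrity and labelling, was 2.05 to 2.48 against 2.64 to 2.91 for actin and 1.60 to 1.74 against 1.38 to 1.52 for ubiquitin. For GAPDH a pair of probe sets gave 0.887 to 0.960 in wild type and 1.00 to 1.07 in the mutant, and another pair 1.15 to 1.25 and 0.951 to 1.04. The part of these measures in the XTH differences was not tested.

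For each of the 5 genes, the 3 genes with the most similar profile over the 6 samples were found among named genes brighter than the median of all probe sets, by the root-mean-square distance between log2 profiles centred on their means. Closest to XTH19 were AT4G28990, AT5G19890 and ChiC, which encodes a class V chitinase, at distances of 0.09, 0.11 and 0.12 log2 units and with differences between genotypes of 2.29, 2.18 and 2.08. Closest to XTH18 was AT1G72900, at 0.05, followed by AT1G54200 and AT3G18215, both at 0.12. For EXGT-A3 these were AT3G29760, AT4G34220 and AT5G35460, all at 0.04, and their log2 differences lay between -0.94 and -0.89. For XTH26 they were CCB3, a gene of cytochrome b6f assembly, at 0.15, AT3G08890 at 0.17 and AT2G20725 at 0.18. XTH20 was matched by AT1G56020, AT3G50560 and AT3G47120, at 0.07, 0.07 and 0.09, whose log2 differences were 0.11, 0.22 and 0.27. None of these 15 genes belongs to the XTH family by symbol. All profiles share the 6 arrays and their scaling, and the distance is dominated by the difference between genotypes.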

How the data were processed

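Transcript levels were measured on expression arrays in 3 wild type and 3 cdkf;1-2 seedling samples. The authors deposited 1 linear intensity per probe set and sample for 22810 probe sets. GCOS is named per the submitters' processing notes, with settings and scaling not given in the sources used. Array medians of the deposited signals ranged from 64.1 to 114, so signals were quantile-normalized, 16 was added and log2 was taken. The 64 control probe sets were left out and the other 22746 entered a limma fit (version 3.58.1, R 4.3.3; 2-sided test of genotype, leaving 4 residual degrees of freedom, Benjamini-Hochberg over all probe sets, threshold 0.05). The fit was tested on simulated data with independent noise, in which only probe sets above the median level were changed. That test does not cover dim genes such as XTH26, or the scaling of the arrays.

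Of the probe sets 13513 had 1 gene in the array's annotation, 503 had several and 8730 were not listed. Symbols of 13436 were updated through the TAIR10.1 gene table, and the brightest probe set stood for a gene. No coordinates are printed, since no source used here names the build of the array design.

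Members and gene lists were chosen with earlier results of these data known. All measured genes of the XTH, xyloglucan and expansin lists are named. Of the cellulose and root hair lists the called genes and up to 2 others are named, and for each member the 3 genes of most similar profile. Alternatives were 4 other scalings, added constants of 1 and 64, a filter on the 40% dimmest probe sets, a prior variance that was trended and robust, a replicate block, fits lacking one sample at a time, and averaging the probe sets of each gene. Precision is limited by there being 6 arrays.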

Additional observations from a re-analysis of the deposited data

How the results depend on the processing

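The differences of the 5 XTH genes kept their direction, as did the shifts of XTH18, XTH19 and XTH20 against XTH26. The shift of EXGT-A3 against XTH26 did not. From 0.13 it went to 1.99 with a constant of 1, -0.50 with 64 and 0.50 with spike scaling, and from -0.12 to 0.31 with a sample left out (chosen after seeing the data). Of 225 values recomputed under an alternative, 178 moved little and 47 moved further. The 178 include log2 differences that could not move, as under another prior variance, the replicate block or the mean over probe sets. The tally is therefore not a measure of stability. Over all probe sets, 3267 calls became 328 on the deposited signals and 2122 with a constant of 1, and 1496 to 4107 with a sample left out. The 1 call among the other XTH genes went to 0 on the deposited signals, with median centring, with trimmed mean scaling, with a constant of 1, with the replicate block and in each fit without a sample (0 to 0); with spike scaling the 1 call was XTH32. Of 8 called expansins 2 were left on the deposited signals and 5 with a constant of 1, and 5 to 9 without a sample. COB became 1 called gene with a constant of 64, without the 40% dimmest probe sets, with a trended and robust prior and with the replicate block, and 0 to 1 genes were called without a sample.

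Scaling on hybridisation spikes gave 1.23 for XTH18, 2.70 for XTH19, -0.43 for EXGT-A3 and 3.63 for XTH19 minus XTH26. Median centring gave 2.47 for XTH19 and -0.66 for EXGT-A3, which was -0.76 on the deposited signals and -0.79 with trimmed mean scaling. A constant of 64 gave 2.19 for XTH19 and -0.37 for XTH26, and 1.21, 2.56 and 0.52 for XTH18, XTH19 and XTH20 minus XTH26; a constant of 1 gave -2.89 for XTH26 and 3.89, 5.24 and 3.17 for these shifts. The causes were not tested. Without the 40% dimmest probe sets XTH26 itself was left out. Each of the 5 genes had 1 probe set, so a mean over probe sets changed nothing.

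With the replicate number as a block 3382 probe sets were called. Deviations of same-numbered samples correlated at 0.298, 0.009 and 0.150 across probe sets, wild type replicates 2 and 3 correlated best with another number, and the labels give no shared origin, so the numbers were not taken as pairs. Dim signals limit XTH26 and XTH21.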
